A study of Bos taurus with 12 samples.

Results

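The genes that write, copy, remove and read DNA methylation were followed in liver of newborn calves. The 9 members were chosen by name for these roles, and all 9 were found among the 30336 gene IDs of the count files. DNMT1 and UHRF1 maintain methylation, DNMT3A and DNMT3B place it anew, TET1, TET2 and TET3 oxidise it, TDG excises the oxidised base and MBD2 binds the methylated site. The rule used names and no measured value.

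Liver was sampled at 4 d of age, and the 12 libraries are labelled as 12 Holstein heifer calves, managed alike after birth. The dams of the 6 CON calves received, from 28 d before calving, a close-up diet without added Met that held 15.3% crude protein and 1.47 Mcal per kg of dry matter. The dams of the 6 MET calves received that diet plus Met protected from the rumen by ethyl cellulose (Mepron). Maternal methionine is a precursor of the methyl donor S-adenosylmethionine (SAM), and the comparison asks whether its supply before birth goes with another level of these mRNA in the calf. The labels describe the calves as drawn from a larger cohort, and RNA was taken from whole liver tissue, so fewer cells of a type and less mRNA per cell cannot be told apart.

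Methyl groups on cytosine are added with SAM as the donor. After DNA replication, UHRF1 binds the strand pair that carries the mark on the parent strand, and DNMT1 then copies it to the daughter strand, so both act mostly in dividing cells. DNMT3A and DNMT3B methylate sites without a parent mark. The TET enzymes use alpha-ketoglutarate to oxidise methylcytosine in steps, and TDG removes the later products so that base excision repair can restore cytosine. MBD2 recruits the NuRD complex, which remodels nucleosomes and deacetylates histones. Hepatocytes of an adult divide seldom, while liver of the fetus also makes blood cells.

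Each library held between 8277789 and 10397604 counted reads. In 2 cases, libraries of the same diet were nearly identical in their counts. Their chi-square, averaged over genes, was 1.31 between CON replicates 1 and 4 and 1.23 between MET replicates 1 and 3, near the value of 1 that counting alone gives. For the other 64 pairs of libraries it lay between 23.3 and 122.2. In both diets the near-identical libraries carried the same second indexes, TATAGCCT and GGCTCTGA. The labels give them different animals, and whether they come from different calves was not tested. Reads of each near-identical pair were summed, so that 10 samples, 5 per diet, give the values, means and SD below. Tests were run over the 12 libraries and over these 10 samples. The liver identity of the tissue was visible in all samples. ALB, the albumin gene, averaged 44387 ± 14503 TPM (reads per exonic base, scaled to a common total; SD, n = 10), and each of the 10 hepatocyte markers was read.

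Expression is given as CPM, the read count scaled to a common library total after TMM normalization. Of the 9 members, 8 passed the filter on low counts and were tested. No member differed between the diets past the threshold of FDR 0.10 in edgeR's quasi-likelihood test (0 of 8), where 4.41% of all 13212 genes tested did. At p of at most 0.05 before adjustment, edgeR gave 1 of 8 members, TET2, against 20.5% of all genes. DESeq2 also called 0 of 8 members at FDR 0.10, against 9.95% of all genes, and placed 1 at p of at most 0.05 before adjustment, against 21.1%. Over the 10 samples, edgeR called 0% of all 13242 genes at FDR 0.10, and 16.3% of genes against 0 of 8 members had p of at most 0.05 before adjustment. DESeq2 over these samples gave no FDR for DNMT3B and called 0 of the other 7 members, against 4.83% of all genes, and 0 of 8 against 16.6% had p of at most 0.05 before adjustment. In an exact two-sided permutation test of each member alone over all arrangements of the 10 samples, 1 of 9 members had p of at most 0.05, DNMT3B, where 15.2% of all genes did. The share of members in each count lies near or below that of all genes. No member separated the 5 MET from the 5 CON samples fully, which 3.72% of all genes did.

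**Figure D1:**
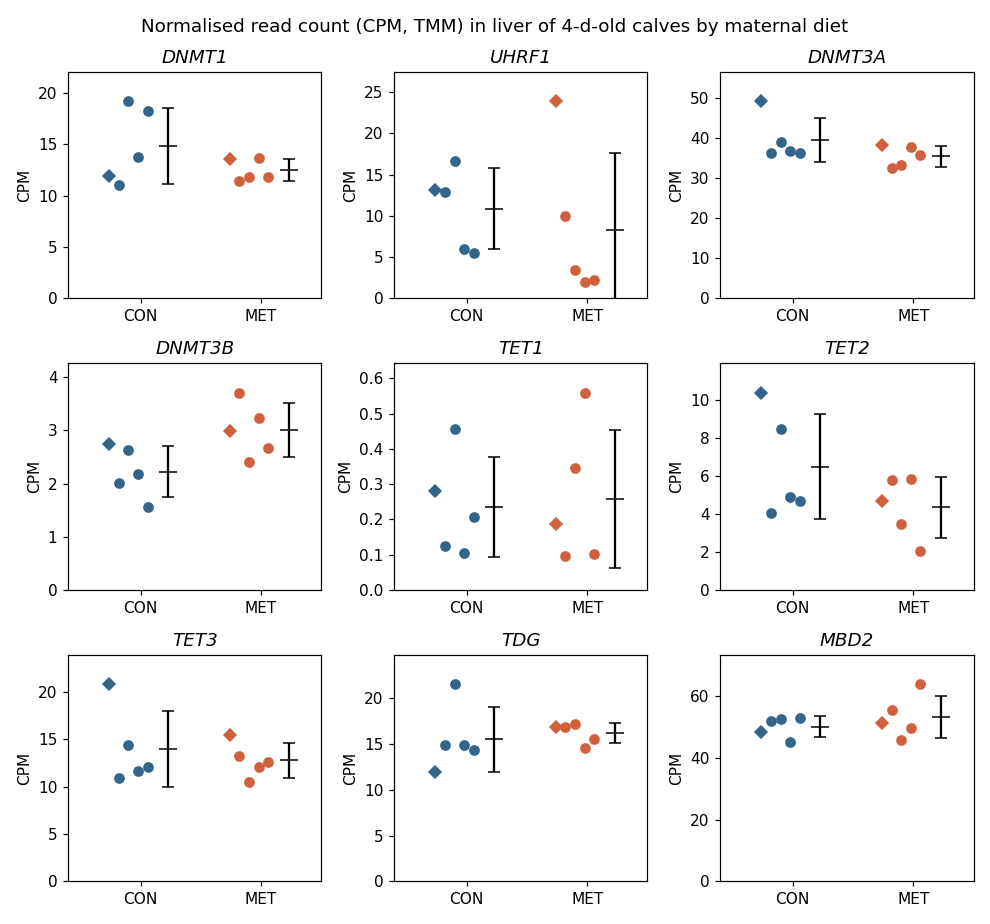
Normalised read count (CPM after TMM normalization, y axis, each panel from 0) of the 9 members in each of 5 CON (blue) and 5 MET (orange) samples; diamonds are samples made of 2 near-identical libraries, and black bars are the mean ± SD, cut at 0 for UHRF1 in MET. UHRF1 spans 2.01 to 23.9 CPM, and in every panel the diets overlap.

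DNMT1 (Entrez gene 281119, chr7:15906316-15967867 of UMD 3.1.1, minus strand, 47 exon blocks) is the maintenance methyltransferase. Its expression in the CON samples was 11.9 CPM (replicates 1 and 4), 11.05 (replicate 2), 19.2 (replicate 3), 13.7 (replicate 5) and 18.2 (replicate 6). The MET samples had 13.6 CPM (replicates 1 and 3), 11.4 (replicate 2), 11.8 (replicate 4), 13.6 (replicate 5) and 11.8 (replicate 6). All 5 MET samples lay within the range of CON, and CON replicates 3, 5 and 6 stood above every MET sample, replicate 5 by little. Means were 14.8 ± 3.69 CPM in CON and 12.5 ± 1.07 in MET (SD, n = 5 per diet). The log2 fold change of MET against CON was −0.18 ± 0.15 (SE) over the 12 libraries, with edgeR FDR = 0.521. Over the 10 samples it was −0.25 ± 0.17, with FDR = 0.484. The 95% interval ran from 0.707 to 1.102 times the CON level over the 12 libraries and from 0.657 to 1.08 times over the 10 samples. The exact permutation p over the 10 samples was 0.278.

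UHRF1 (Entrez gene 530411, chr7:20436669-20470870, minus strand, 18 exon blocks) guides DNMT1 to replicated DNA, and it had the widest spread of the tested members. The CON samples had 13.1 CPM (replicates 1 and 4), 12.9 (replicate 2), 16.7 (replicate 3), 6.04 (replicate 5) and 5.49 (replicate 6). The MET samples had 23.9 CPM (replicates 1 and 3), 9.95 (replicate 2), 3.45 (replicate 4), 2.01 (replicate 5) and 2.27 (replicate 6). The highest sample of all 10 and the 3 lowest were MET samples, and the highest was 11.9 times the lowest. These differences rest on 257 and 253 reads in the libraries of MET replicates 1 and 3, and on 18 to 30 reads in those of MET replicates 4, 5 and 6. The mean was 10.9 ± 4.88 CPM in CON and 8.31 ± 9.28 in MET (SD, n = 5 per diet). The log2 fold change was −0.026 ± 0.57 (SE) over the 12 libraries (edgeR FDR = 0.986), where the MET pair counts as 2 libraries, and −0.33 ± 0.61 over the 10 samples (FDR = 0.825). Its sign turned when CON replicate 1, 2 or 3 or MET replicate 2, 4, 5 or 6 was left out, with values from 0.0015 to 0.19, and it was −0.42 without MET replicate 3. The 95% interval over the 10 samples runs from 0.316 to 2.00 times the CON level, so these data bound the effect of diet on UHRF1 poorly. On the mean of log2 CPM, which weights low samples more, the difference was −0.89 with an exact permutation p of 0.270.

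DNMT3A (Entrez gene 359716, chr11:73963487-74066746, plus strand, 21 exon blocks) was the methyltransferase with the most reads, 288 to 441 per library. The CON samples had 49.1 CPM (replicates 1 and 4), 36.3 (replicate 2), 38.9 (replicate 3), 36.6 (replicate 5) and 36.2 (replicate 6). The MET samples had 38.3 CPM (replicates 1 and 3), 32.5 (replicate 2), 33.1 (replicate 4), 37.7 (replicate 5) and 35.6 (replicate 6). The sample of CON replicates 1 and 4 stood apart from the other 9, and 3 of 5 MET samples lay below every CON sample. Its log2 fold change was −0.19 ± 0.11 (SE) over the 12 libraries (edgeR FDR = 0.325) and −0.16 ± 0.11 over the 10 samples (FDR = 0.523). The 95% interval was 0.748 to 1.03 times the CON level over the 12 libraries and 0.756 to 1.07 times over the 10 samples. With the trend of each library on gene length removed, the value was −0.028 (edgeR FDR = 0.908), and 0.0041 over the 10 samples (FDR = 0.991). DNMT3A has a long model of 9832 exonic bases, and across all genes the fold change correlated with log2 length (r = −0.264 over 13212 genes, which are not independent replicates).

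DNMT3B (Entrez gene 353354, chr13:62688524-62722422, plus strand, 23 exon blocks), the other de novo enzyme, was read only 15 to 38 times per library. The CON samples had 2.74 CPM (replicates 1 and 4), 2.01 (replicate 2), 2.63 (replicate 3), 2.19 (replicate 5) and 1.55 (replicate 6). The MET samples had 2.995 CPM (replicates 1 and 3), 3.71 (replicate 2), 2.42 (replicate 4), 3.24 (replicate 5) and 2.68 (replicate 6). The values were mostly higher in MET, with 3 of 5 MET samples above every CON sample, but they overlapped. The log2 fold change was 0.38 ± 0.20 (SE) over the 12 libraries (edgeR FDR = 0.305) and 0.42 ± 0.22 over the 10 samples (FDR = 0.354). The exact permutation p over the 10 samples was 0.0397, and it was 0.0519 over the 12 libraries and 0.0635 with library size alone as the scale. At the mean number of reads per sample, counting alone gives a coefficient of variation of 18.2%, and the samples varied by 21.6% in CON and 16.6% in MET. Whether the calves of a diet varied beyond counting noise was not tested. With the length trend removed, the value was 0.45 with edgeR FDR = 0.248, and 0.50 over the 10 samples with FDR = 0.324. The 95% intervals there, 1.02 to 1.83 and 1.03 to 1.93 times the CON level, do not include 1. DNMT3B thus had p of at most 0.05 before adjustment in both, as did 2335 of 13212 and 1864 of 13242 genes.

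Among the 3 DNA methyltransferases, DNMT3A gave 58.7 ± 6.14% of their summed TPM in CON and 57.8 ± 1.42% in MET (SD, n = 5 per diet). The share of DNMT1 was 34.1 ± 6.93% in CON and 31.5 ± 0.908% in MET. The share of DNMT3B was 7.21 ± 1.25% in CON and 10.7 ± 1.85% in MET, and here the diets did not overlap. The CON samples ran from 5.001 to 8.14% and the MET samples from 9.29 to 13.9%. This share was looked at after the values of DNMT3B were known and was not tested, and 3.72% of all genes separated the diets fully in CPM.

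Both TET2 and TET3 were expressed, and TET1 was barely read. TET1 (Entrez gene 513640, chr28:25062348-25192041, plus strand, 13 exon blocks) had 27 reads in all 12 libraries together, with 1 to 5 in each, and did not pass the filter. Among the 10 samples, 5 had fewer than 3 reads, the floor below which a level is not read here, which equals 0.289 to 0.362 CPM in a library. A difference between diets was not detectable at this depth.

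TET2 (Entrez gene 538481, chr6:21175043-21317790, minus strand, 11 exon blocks) is an oxidase without a DNA-binding CXXC domain of its own. The CON samples had 10.4 CPM (replicates 1 and 4), 4.02 (replicate 2), 8.45 (replicate 3), 4.89 (replicate 5) and 4.66 (replicate 6). The MET samples had 4.68 CPM (replicates 1 and 3), 5.75 (replicate 2), 3.45 (replicate 4), 5.81 (replicate 5) and 2.06 (replicate 6). Values above 8 CPM were found in 2 CON samples and in 0 MET samples, while the other 8 samples of both diets overlapped. The mean was 6.48 ± 2.77 CPM in CON and 4.35 ± 1.603 in MET (SD, n = 5 per diet). For TET2 the log2 fold change was −0.69 ± 0.30 (SE) over the 12 libraries (edgeR FDR = 0.212), where the CON pair with the highest level counts as 2 libraries. It was −0.58 ± 0.33 over the 10 samples (FDR = 0.399), with a 95% interval from 0.407 to 1.09 times the CON level. The exact permutation p was 0.206. With the length trend removed, TET2 had −0.54 over the 12 libraries (edgeR FDR = 0.321) and −0.44 over the 10 samples (FDR = 0.533).

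TET3 (Entrez gene 101904937, chr11:10540093-10571581, minus strand, 9 exon blocks) was the most abundant TET mRNA per length. It ranged from 10.9 to 20.8 CPM in CON and from 10.5 to 15.4 in MET, and the highest value was again that of CON replicates 1 and 4. Its log2 fold change was −0.19 ± 0.18 (SE) over the 12 libraries (edgeR FDR = 0.585) and −0.13 ± 0.19 over the 10 samples (FDR = 0.758), with an exact permutation p of 0.667. TET3 made up 65.6 ± 4.56% of the summed TET TPM in CON and 71.4 ± 8.04% in MET (SD, n = 5 per diet). TET2 made up 33.1 ± 4.12% and 26.7 ± 7.35%, and TET1, near the floor, the small rest. In MET replicate 6, which had the lowest TET2 level, TET3 was 5.40 times TET2 in TPM, whereas in the other 9 samples it was 1.51 to 2.92 times TET2.

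TDG (Entrez gene 517825, chr5:67973222-67994057, plus strand, 10 exon blocks), the glycosylase that starts the repair of oxidised methylcytosine, ranged from 11.9 to 21.5 CPM in CON and from 14.5 to 17.1 in MET. All MET samples lay within the range of CON, which CON replicate 3 led. For TDG the log2 fold change was 0.13 ± 0.14 (SE) over the 12 libraries (edgeR FDR = 0.622) and 0.070 ± 0.15 over the 10 samples (FDR = 0.853), with an exact permutation p of 0.587. The 95% interval was 0.893 to 1.35 times the CON level over the 12 libraries and 0.838 to 1.31 times over the 10 samples.

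MBD2 (Entrez gene 100337206, chr24:54044120-54093694, minus strand, 6 exon blocks), the reader of methylated DNA, ranged from 45.1 to 53.0 CPM in CON and from 45.9 to 63.7 in MET. It was the steadiest member, with a coefficient of variation of 10.3% over the 10 samples, and MET replicates 2 and 6 lay above every CON sample. Between diets the log2 fold change was 0.086 ± 0.096 (SE) over the 12 libraries (edgeR FDR = 0.648) and 0.085 ± 0.11 over the 10 samples (FDR = 0.740), and with the length trend removed it was −0.036 (FDR = 0.871) and −0.040 (FDR = 0.900). The exact permutation p was 0.444. The 95% interval was 0.921 to 1.22 times the CON level over the 12 libraries and 0.897 to 1.25 times over the 10 samples.

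**Figure D2:**
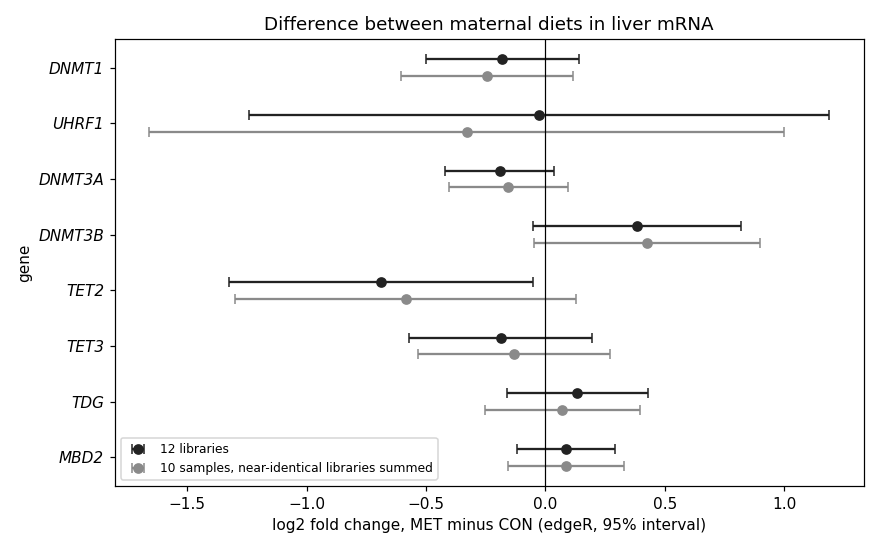
Log2 fold change of MET against CON (x axis) with its 95% interval for the 8 tested members (y axis), from edgeR over 12 libraries (black) and over 10 samples with near-identical libraries summed (grey). Over 10 samples each interval includes 0, and over 12 libraries that of TET2 (−1.32 to −0.050) does not, at FDR = 0.212.

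The study also measured DNMT1 and DNMT3A by quantitative PCR, and its primers are given here, 5′ to 3′ with no part marked, because they show which members had an assay of their own. Those PCR values and the position of the primers in the genome were not analysed here.
DNMT1 forward: gcgcctcagctaaaatcaagg
DNMT1 reverse: ccacaaacaccgcatacgac
DNMT3A forward: ggagtcactggaagcccaacc
DNMT3A reverse: catagatccaggtgtggagcgg

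Levels of different genes were compared in TPM, over all 10 samples. MBD2 led with 76.8 ± 10.3 TPM (SD, n = 10), above 89.6% of all genes tested, but its gene model holds only 1204 exonic bases, and a model shorter than the mRNA would raise this level. TDG followed with 8.96 ± 1.97 TPM and DNMT3A with 6.81 ± 0.964, and TDG was the higher in 9 of 10 samples. UHRF1 with 4.06 ± 3.11 TPM and DNMT1 with 3.89 ± 1.07 did not differ beyond their spread, since UHRF1 was the higher in 5 of 10 samples. TET3 had 2.52 ± 0.625 TPM and lay below DNMT1 in 9 of 10 samples. TET2 with 1.16 ± 0.547 TPM and DNMT3B with 1.04 ± 0.282 did not differ beyond their spread either, and TET2 was the higher in 5 of 10 samples. TET1, with too few reads for a level in 5 of 10 samples, was lowest. The other 8 members were thus at or below the middle of the genes tested, since 49.6% of these had a lower mean level than TDG and fewer had a lower level than the other 7.

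The ratio of DNMT1 to its partner UHRF1 differed widely between calves. It was 0.388 in the MET sample of replicates 1 and 3 and 4.61 in MET replicate 5, in TPM. In CON it ran from 0.581 to 2.26, and in MET 3 of 5 samples lay above and 1 below this range. The ratio of DNMT3A to DNMT3B was 8.33 ± 1.44 in CON and 5.52 ± 0.913 in MET (SD, n = 5 per diet), with all 5 MET samples below all 5 CON samples. It repeats the shares of these enzymes and was not tested, and 3.72% of all genes separated the diets fully in CPM.

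Members also differed in how much they varied between calves of the same diet. The SD of log2 CPM within diets was 1.16 for UHRF1, larger than in 98.5% of the 13242 genes tested over the 10 samples. TET2 followed with 0.59, larger than in 88.5% of genes. TET3 (0.30), DNMT3B (0.27), DNMT1 (0.26) and TDG (0.23) lay near the median of all genes, 0.29. DNMT3A (0.15) and MBD2 (0.14) varied less than most, with 9.53% and 7.94% of genes below them. Low counts raise this SD, and both steady members were those with the most reads.

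Some members varied together across the 10 samples, given as a description over 28 pairs of members that share libraries and depth. The closest pair was DNMT3A and TET3 (r = 0.836, rho = 0.576), and r was 0.787 in the 8 samples left without the 2 in which DNMT3A was farthest from its median. TET2 went with TET3 (r = 0.661, rho = 0.624) and with DNMT3A (r = 0.650, rho = 0.673). All 3 were highest in the sample of CON replicates 1 and 4. DNMT1 and UHRF1, which act together, showed little relation (r = 0.141, rho = 0.0909), with r = −0.107 in the 8 samples without the 2 in which DNMT1 was farthest from its median. DNMT3A and DNMT3B had r = 0.0152 (rho = 0.0909) over all samples, but r = 0.493 for deviations from the mean of each diet and r = 0.332 without the 2 extreme samples of DNMT3A. The lowest r was that of DNMT3A and TDG (−0.482, rho = −0.285), and its sign turned without these 2 (r = 0.289).

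The wide range of UHRF1 was set beside 32 genes of DNA replication and mitosis, of which 31 were tested. Across the 10 samples, UHRF1 correlated positively with 28 of these 31 genes, with a median r of 0.56, whereas over all genes the median was 0.016 and 6836 of 13234 were positive. For DNMT1, 27 of 31 were positive with a median r of 0.30, against 0.0055 over all genes, and its r with the summed list was 0.451 (rho = 0.200). DNMT1 had higher median r with the 9 stellate cell and fibroblast markers (0.44, 9 of 9 positive) and the 4 tested bile duct markers (0.47, 4 of 4 positive). Among the genes named by rule, r with UHRF1 was 0.70 for TYMS (thymidylate synthase), 0.61 for CCNB1 (cyclin B1), 0.57 for CDK1, 0.56 for CCNE2 (cyclin E2), 0.46 for MCM7 and 0.31 for RRM1. RFC4 was the exception with the lowest r, −0.81, and was picked after its value was seen. The summed CPM of the list was 292, 403, 447, 291 and 329 in CON (replicates 1 and 4, 2, 3, 5, 6) and 334, 286, 256, 268 and 315 in MET (replicates 1 and 3, 2, 4, 5, 6). With UHRF1 its log2 gave r = 0.587 and rho = 0.648, and r = 0.610 in 8 samples without the 2 in which UHRF1 was farthest from its median.

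The match was loose. The sample with the most UHRF1, that of MET replicates 1 and 3, stood behind CON replicates 2 and 3 in the summed list, and MET replicate 6 had 2.27 CPM of UHRF1 against 5.49 in CON replicate 6 at a like sum. Erythroid markers, genes of red blood cells and their precursors, had summed levels of 20.7, 1108, 473, 165 and 468 CPM in CON and 604, 126, 205, 82.5 and 176 CPM in MET, in the same order of replicates. All 15 markers had a read, HBB (beta globin) was the most abundant with 750 ± 755 TPM (SD, n = 10), and 4 passed the filter. Their sum gave r = 0.296 and rho = 0.406 with UHRF1, and r = 0.152 in 8 samples without the 2 in which UHRF1 was farthest from its median. The sample of CON replicates 1 and 4 had the lowest erythroid sum, and its UHRF1 level was 13.1 CPM, above the median of the samples. Among the other marker lists, the bile duct sum gave r = 0.509 (rho = 0.430) with UHRF1 and the neutrophil sum r = −0.512 (rho = −0.539), in size near that of the replication list. Without the same 2 samples, r was 0.458 for the bile duct sum and −0.454 for the neutrophil sum. The part of cell division or of cell makeup in the level of UHRF1 was not tested.

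**Figure D3:**
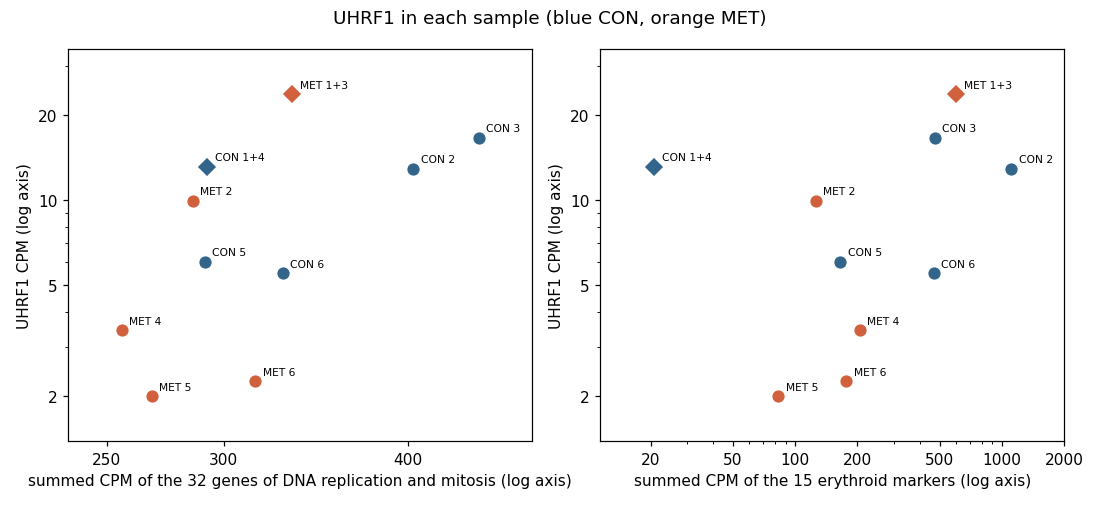
UHRF1 (CPM, log y axis) against the summed CPM of the DNA replication and mitosis list (left, log x axis) and of the erythroid markers (right, log x axis) in each of 5 CON (blue) and 5 MET (orange) samples, with replicate numbers beside the points and diamonds for samples made of 2 near-identical libraries. The r of UHRF1 is 0.587 with the left sum and 0.296 with the right one, and CON replicates 1 and 4 combine 13.1 CPM of UHRF1 with 20.7 CPM of erythroid markers.

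For each tested member, the 3 genes most like it were those with the highest Pearson r of log2 CPM over the 10 samples among all genes tested. For UHRF1 these were ASF1B, a histone chaperone of replicating DNA (r = 0.903, rho = 0.867), HYAL1 (r = 0.891) and Entrez gene 107131830 (r = 0.873). For DNMT1 they were KIRREL1 (r = 0.947), PIGG (r = 0.934) and NFKB1 (r = 0.926). DNMT3A was followed by LOC104968476 (r = 0.944), APLF (r = 0.918) and MYCBP2 (r = 0.911), and DNMT3B by SFT2D3 (r = 0.935), ASAP1 (r = 0.919) and LTB4R (r = 0.918). TET2 was followed most closely of all, by the splicing factor gene SRSF11 (r = 0.964, rho = 0.952), ZCCHC8 (r = 0.957) and LIN54 (r = 0.937). TET3 was followed by VMAC (r = 0.934), IQCE (r = 0.923) and ARID1B (r = 0.902), and MBD2 by ECM1 (r = 0.917), KANK3 (r = 0.917) and B9D2 (r = 0.904). TDG had the least close genes, TUBB (r = 0.870, but rho = 0.345), CENPH (r = 0.870) and TLCD4 (r = 0.858). Each r is the highest found among 13242 genes over 10 samples and serves as a description alone.

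The other genes of the pathway were described from lists of 106 genes, by the number past FDR 0.10 in edgeR over the 12 libraries and by their median. Each such call over the 12 libraries was lost over the 10 samples, where edgeR called 0 genes of any list. Over all genes tested, edgeR called 4.41% over the 12 libraries, and DESeq2 9.95% over the 12 libraries and 4.83% over the 10 samples. The median log2 fold change of all genes was −0.0031 over the 12 libraries.

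Relatives and regulators of DNMT and UHRF1 (15 genes, 13 tested) had 0 calls by edgeR at FDR 0.10 and 0 by DESeq2, with a median log2 fold change of −0.044. Of the 13, 1 had p of at most 0.05 before adjustment in edgeR, against 20.5% of all genes. The most abundant were NAA10, with 60.5 TPM and a log2 fold change of 0.19 ± 0.15 (SE), and TRIM28, with 40.3 TPM and 0.12 ± 0.12. DPPA3 had no read, and DNMT3L, the cofactor of the de novo enzymes in germ cells, had 5 reads in all. Readers other than MBD2 (9 genes, 9 tested) had 0 calls by edgeR and 1 by DESeq2, and a median of −0.039. Of these 9, 2 had p of at most 0.05 before adjustment, against the same 20.5%. MBD3 had 24.4 TPM and −0.11 ± 0.16, and MBD1 had 16.4 TPM and 0.029 ± 0.076. In CPM their order was reversed, with means of 8.82 in CON and 7.75 in MET for MBD3, and 52.3 and 54.0 for MBD1. The higher TPM of MBD3 thus rests on the length of its gene model.

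Of the 13 partners of MBD2 in NuRD, all tested, 1 was called lower in MET and 0 higher, with a median of −0.031. At p of at most 0.05 before adjustment, edgeR gave 1 of 13 lower and 0 higher, against 20.5% of all genes in either direction. MTA1, a scaffold of the complex, had 8.79 ± 1.06 CPM in CON and 5.51 ± 1.21 in MET (SD, n = 5 per diet). All 5 MET samples of MTA1 lay below all 5 CON samples, and 3.72% of all genes separated the diets fully. The log2 fold change of MTA1 was −0.57 ± 0.16 (SE) over the 12 libraries (edgeR FDR = 0.0869) and −0.66 over the 10 samples (FDR = 0.175). The deacetylase HDAC1 (56.2 TPM, log2 fold change 0.11 ± 0.10) and RBBP4 (45.1 TPM, 0.0098 ± 0.081) were the most abundant.

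Partners of TET and suppliers of its cofactor (12 genes, 10 tested) had 0 calls by edgeR and 1 by DESeq2, and a median of 0.10. At p of at most 0.05 before adjustment, edgeR gave 2 of 10, against 20.5% of all genes. IDH3B (139 TPM) had a log2 fold change of 0.23 ± 0.14 (SE), and IDH2 (103 TPM), which makes alpha-ketoglutarate in mitochondria, 0.17 ± 0.12. IDH1 (98.9 TPM), which also makes it, lay the other way with −0.58 ± 0.19 (edgeR FDR = 0.123) over the 12 libraries and −0.55 over the 10 samples (FDR = 0.252), and 3 of 5 MET samples lay below every CON sample. IDH3G (70.5 TPM) was higher in MET with 0.22 ± 0.088 (SE; edgeR FDR = 0.186) over the 12 libraries and 0.23 over the 10 samples (FDR = 0.286). All 5 MET samples of IDH3G lay above all 5 CON samples, and 3.72% of all genes separated the diets fully. IDH1 and IDH3G were named after their values were seen.

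Base excision repair and its DNA glycosylases (17 genes, 15 tested) had 2 calls higher and 1 lower in MET by edgeR, with a median of 0.091. At p of at most 0.05 before adjustment, edgeR gave 2 of 15 higher and 3 lower, against 20.5% of all genes in either direction. NEIL1, a glycosylase of oxidised bases, had 5.90 ± 0.925 CPM in CON and 8.82 ± 1.26 in MET (SD, n = 5 per diet), and its log2 fold change was 0.55 ± 0.14 (SE; edgeR FDR = 0.0755, and 0.175 over the 10 samples). All 5 MET samples of NEIL1 lay above all 5 CON samples, and 3.72% of all genes separated the diets fully. NEIL2, a related glycosylase, lay the other way with 6.14 ± 1.68 CPM in CON and 3.23 ± 1.03 in MET, a log2 fold change of −0.97 ± 0.22 (edgeR FDR = 0.0628, and 0.175 over the 10 samples), and 4 of 5 MET samples below every CON sample. The most abundant were GADD45G (111 TPM, −0.85 ± 0.38, edgeR FDR = 0.230, and 0.498 over the 10 samples) and GADD45A (70.9 TPM, 0.11 ± 0.25).

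The list for supply of SAM and removal of its product S-adenosylhomocysteine (8 genes, 8 tested) also held GNMT, a methyltransferase that uses SAM, and ADK, an adenosine kinase. The list had 0 calls by edgeR and by DESeq2. Its median was −0.14, 7 of 8 being negative and GNMT positive (0.55 ± 0.42, SE). At p of at most 0.05 before adjustment it held 2 of 8, against 20.5% of all genes. AHCY, which hydrolyses S-adenosylhomocysteine, was by far the most abundant with 1664 TPM and had 1993 ± 194 CPM in CON and 1978 ± 474 in MET (SD, n = 5 per diet). Its log2 fold change was −0.0057 ± 0.14 (SE; edgeR FDR = 0.987, and 0.984 over the 10 samples). MAT1A, the liver enzyme that makes SAM from Met, had 541 ± 205 CPM in CON and 465 ± 146 in MET, with −0.20 ± 0.26 (edgeR FDR = 0.702, and 0.731 over the 10 samples).

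DNA replication and mitosis (32 genes, 31 tested) had 4 calls lower in MET and 0 higher by edgeR (10 by DESeq2, and 8 by DESeq2 over the 10 samples), with 25 of 31 log2 fold changes negative and a median of −0.30. At p of at most 0.05 before adjustment, edgeR gave 11 of 31 lower and 2 higher, against 20.5% of all genes in either direction. Over the 10 samples it gave 14 genes of the list, against 16.3% of all genes. CCNE2 had 4.82 ± 1.40 CPM in CON and 1.87 ± 0.356 in MET (SD, n = 5 per diet), with −1.44 ± 0.22 (SE; edgeR FDR = 0.0381, and 0.156 over the 10 samples). CDK1 had 8.51 ± 5.95 CPM in CON and 2.21 ± 0.773 in MET, with −1.66 ± 0.43 (edgeR FDR = 0.0766, and 0.174 over the 10 samples). For CCNE2 and CDK1 all 5 MET samples lay below all 5 CON samples, and 3.72% of all genes separated the diets fully. CCNB1 had −1.85 ± 0.46 (edgeR FDR = 0.0719, and 0.172 over the 10 samples) and TYMS −0.59 ± 0.16 (FDR = 0.0849, and 0.175), with 4 of 5 MET samples below every CON sample. The most abundant, RRM1 (60.0 TPM, −0.057 ± 0.11) and MCM7 (22.0 TPM, −0.073 ± 0.13), showed no such difference. Over the 10 samples the median of the list was −0.38, and UHRF1 and DNMT1 had −0.33 and −0.25 there (edgeR FDR = 0.825 and 0.484), against −0.026 and −0.18 over the 12 libraries (FDR = 0.986 and 0.521).

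Markers of other liver cells were read in the same way. Of 11 markers of Kupffer cells and macrophages, all 11 had positive log2 fold changes, with a median of 0.34 (0.32 over the 10 samples), and 2 were called higher in MET by edgeR at FDR 0.10. At p of at most 0.05 before adjustment, 6 of 11 were higher and 0 lower, against 20.5% of all genes in either direction. Over the 10 samples edgeR gave 5 markers of the list, against 16.3% of all genes. C1QC had 0.41 ± 0.089 (SE; edgeR FDR = 0.0571) over the 12 libraries and 0.40 over the 10 samples (FDR = 0.175). C1QB had 0.39 ± 0.11 (edgeR FDR = 0.0855) and 0.36 (FDR = 0.213). The summed level of the list was 1695 ± 165 CPM in CON and 2004 ± 217 in MET (SD, n = 5 per diet), with MARCO the most abundant gene (519 ± 103 TPM).

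All 9 markers of stellate cells and fibroblasts had negative values, with a median of −0.23 (−0.34 over the 10 samples). LUM was called lower with −0.70 ± 0.21 (SE; edgeR FDR = 0.0985), and had −0.69 over the 10 samples (FDR = 0.211). Of 10 hepatocyte markers, 7 were negative, with a median of −0.19 (−0.20 over the 10 samples), and their summed level was 176905 ± 20294 CPM in CON and 144026 ± 14898 in MET (SD, n = 5 per diet). APOB was called lower with −0.38 ± 0.11 (edgeR FDR = 0.0859) and had −0.41 over the 10 samples (FDR = 0.189). With the length trend removed, it had −0.19 over the 12 libraries (FDR = 0.382) and −0.23 over the 10 samples (FDR = 0.447). ALB had −0.65 ± 0.20 (edgeR FDR = 0.107) and −0.66 (FDR = 0.238). Of the 4 tested bile duct markers, 3 were negative, with a median of −0.23 (−0.40 over the 10 samples), and CFTR was called lower with −0.56 ± 0.16 (edgeR FDR = 0.0889) and had −0.54 over the 10 samples (FDR = 0.195). At p of at most 0.05 before adjustment, 2 of 9 stellate cell and fibroblast markers were lower in edgeR over the 12 libraries. So were 2 of 10 hepatocyte and 1 of 4 bile duct markers, and 0 of these lists were higher, against 20.5% of all genes.

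Neutrophil markers had the largest median of the marker lists, 1.152 over the 12 libraries and 1.22 over the 10 samples, and all 4 tested were positive. Their summed level was 24.1 ± 14.3 CPM in CON and 57.9 ± 52.1 in MET (SD, n = 5 per diet). MET replicate 4 with 147 CPM carried much of the MET mean, since the other 4 MET samples had 17.1 to 59.4 and the CON samples 13.6 to 48.8. The medians over the 12 libraries and over the 10 samples were −0.16 and −0.75 for erythroid, −0.0033 and −0.041 for endothelial, and 0.32 and 0.33 for lymphocyte markers. These 4 lists, in the order erythroid, endothelial, lymphocyte and neutrophil, had 0 calls by edgeR at FDR 0.10 and 1, 0, 0 and 1 calls by DESeq2. At p of at most 0.05 before adjustment they held 1 of 4, 1 of 8, 0 of 5 and 1 of 4 genes, against 20.5% of all genes. Of the 5 marker genes that edgeR called over the 12 libraries, it kept 0 over the 10 samples, where DESeq2 called C1QC (FDR = 0.00228), C1QB (FDR = 0.0680) and APOB (FDR = 0.00974). With the length trend removed over the 12 libraries, edgeR also kept 0 of these 5 calls, while the other 4 genes had 0.28 (C1QC, FDR = 0.147), 0.32 (C1QB, FDR = 0.146), −0.74 (LUM, FDR = 0.116) and −0.44 (CFTR, FDR = 0.163). Marker genes called, and ALB, were named after their values were seen, and the part of cell makeup in the levels of the members was not tested.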

How the data were processed

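The labels gave each of the 12 libraries its diet and replicate number. The authors prepared stranded mRNA libraries, sequenced them from 1 end on 1 lane, trimmed the reads, aligned them to UMD 3.1.1 with STAR 2.5.3a and deposited raw counts per Entrez gene from featureCounts (Subread 1.5.2), with exon positions and lengths. Reads matching several places or genes were left out, and no member shares exon bases with another gene. All CON libraries carried the same first index and all MET libraries another, so index and diet cannot be told apart. RefSeq names (ARS-UCD2.0) matched 25105 of 30336 gene IDs, all 9 members, 106 of 106 pathway genes and 69 of 70 cell type markers.

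CPM, TPM and tests were computed with R 4.3.3, edgeR 4.0.16 (TMM, quasi-likelihood F-test on diet alone, Benjamini-Hochberg over all genes tested, FDR of at most 0.10) and DESeq2 1.42.0, and exact two-sided permutation tests (on log2 CPM, prior count 2) and figures with Python 3.11.15. edgeR's default filter (minimum count 10, minimum total 15) kept 13212 of 21227 genes with a read. Exact tests over 5 against 5 samples cannot give a p below 0.00794. The SE of a log2 fold change is its size divided by the square root of F, and TPM used the deposited lengths. A library of 8277789 to 10397604 reads shows 3 reads as 0.289 to 0.362 CPM, and such floors cover counting error only. The edgeR and DESeq2 fits were tested on simulated counts, which held no near-identical libraries.

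The members and lists were chosen with earlier results of these data known. Named were all members, of each pathway list each gene with FDR of at most 0.10 and the 2 with the highest TPM, and for each tested member the 3 genes of highest r. Not every gene that this rule chose is reported here. Alternatives were RLE factors, library size alone, no filter, DESeq2, a replicate block, the length trend removed (span 0.5), pairs summed, the second library of each pair left out, and each library left out in turn. Promoter and protein sequences were not used here.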

Additional observations from a re-analysis of the deposited data

Results flagged for a closer look

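Of the 18 groups of 5 samples formed by the 9 members and 2 diets, 1 held a sample far from the others. DNMT3A in the sample of CON replicates 1 and 4 had 49.1 CPM, while the next CON sample had 38.9 CPM, a gap of 0.785 of the whole range of CON against the critical value of 0.71 for 5 samples. Chance flags about 1 in 20 such groups. The value was alike in the libraries that make up the sample, with 48.4 CPM (441 reads) in CON replicate 1 and 49.7 CPM (436 reads) in CON replicate 4. This sample also had the highest TET2 and TET3 of all 10 samples and the lowest TDG.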

How the results depend on the processing

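The number of members called stayed at 0 under every alternative run, while the number of all genes called did not hold. From 583 it went to 0 with pairs summed, 0 with the second library of each pair left out, 107 with library size alone, 238 without the filter, 1314 with DESeq2 and 253 with the length trend removed, and to between 26 and 565 when single libraries were left out. Leaving out CON replicate 1 gave 26 and CON replicate 4 gave 35. Chosen after seeing the data, removal of the length trend over the 10 samples gave 0 and DESeq2 over the 10 samples 639, with no FDR for DNMT3B.

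With the replicate number as a replicate block, 6 genes were called. Whether the numbers pair the calves cannot be told from the counts. Same-numbered samples deviated with r from −0.190 to 0.148, and the block changed no call of a member.

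Of 192 values of members under alternatives, 177 kept their direction and side of the threshold, where DNMT3B without an FDR was taken as not called. The log2 fold change of UHRF1 turned to 0.058 with library size alone, 0.027 with the length trend removed, and, with single libraries left out, ran from −0.42 to 0.19. That of MBD2 turned to −0.036 with the length trend removed over 12 libraries and to −0.040 over 10 samples, where that of DNMT3A turned to 0.0041 and that of TET3 to 0.030. The exact test of DNMT3B passed 0.05 over 10 samples and not over 12 libraries or with library size alone. The cause of these differences was not tested. Depth limits TET1 and DNMT3B most. The lowest FDR of any member under any alternative was 0.151 for TET2, without CON replicate 2.

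The 13 genes of the pathway and marker lists called over 12 libraries were run under the same 22 alternatives, a choice made after seeing the data. All kept their direction, and their calls were kept in 4 (APOB and LUM) to 18 (CCNE2) alternatives. Without CON replicate 1 or without CON replicate 4, CCNE2 alone kept its call, with FDR = 0.0869 and 0.0910 in edgeR. With the replicate block 0 of the 13 did.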
